A study of Drosophila melanogaster with 16 samples.

Results

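The genes described here encode proteins of the mitochondrial ribosome and carry the fly symbols mRpL for the large subunit and mRpS for the small subunit. Every gene with such a symbol and a probeset of its own on the Affymetrix Drosophila 2 array was taken, whatever its values. This gave 69 genes, 44 mRpL and 25 mRpS, of 11893 genes with a probeset of their own. All 69 passed the filter on low values, which left 8860 genes to test. The annotation held 73 genes of these names. mRpL34 and mRpL37 had no probeset of their own, and mRpL53 and mRpS10 shared one with another gene, so these 4 were not analysed here.

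The mitochondrial ribosome translates the few messages encoded by mitochondrial DNA, most of which specify subunits of the respiratory chain. Its own proteins are encoded in the nucleus, made in the cytoplasm and imported into the organelle. Many descend from proteins of the bacterial ribosome, and others have no bacterial counterpart and were added during the evolution of the organelle.

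The study measured RNA in naïve Drosophila melanogaster embryos, which lack maternal anterior, posterior and terminal patterning cues, to separate responses to different levels of the Wnt pathway. There were 8 genotypes with 2 arrays each, and each array held about 50 embryos aged 4 to 16 h. The transgene groups came from mothers mutant for bcdE1, nosL7 and tsl146 that carried da-Gal4, a driver active throughout the embryo, crossed to UAS transgenes. Wg++ embryos expressed the Wnt ligand Wingless. arm∆N embryos expressed an active Armadillo, the fly β-catenin, without its N-terminal phosphorylation sites. tcf∆N-short embryos expressed a TCF without the parts that bind Armadillo and Groucho and without the C-clamp, and tcf∆N-long embryos one that lacked only the part that binds β-catenin. Both were tagged with HA. DisArmed embryos expressed a dominant negative Armadillo, and Otk++ embryos an HA-tagged Off-track receptor. arm∆N-tcf∆N-short embryos expressed both of the transgenes in their name. WT embryos were naïve embryos that expressed no transgene. Whether their mothers carried the driver is not given in the sources used here.

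Values are log2 intensities of 1 probeset, which allow a gene to be compared between arrays but not with another gene. A gene was called when its fold change exceeded 1.5 and its limma p-value, adjusted over the 8860 genes, was under 10%. In bulk RNA of whole embryos, fewer cells of a type and less RNA per cell cannot be told apart. The correlation between arrays over all probesets ranged from 0.930 to 0.995, and 10 of the 16 arrays were closest to the other array of their genotype. otk, the gene of the Otk++ transgene, had 7.62 and 7.67 in Otk++, against 6.69 and 7.33 in WT, a log2 difference of 0.64 that was not called (adjusted p = 0.32). The genes wg, arm and pan were not analysed here, so the other transgenes could not be checked.

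The mitochondrial ribosomal protein genes stood highest in WT and lowest in Wg++ and arm∆N. For each array, the value of every gene was set against the mean of that gene over the 16 arrays, and the median of these deviations was taken over the 69 genes. It was -0.51 and -0.44 on the Wg++ arrays and -0.12 and -0.49 on the arm∆N arrays, against 0.59 and 0.33 in WT. The 10 arrays of the other 5 genotypes lay in between, from -0.05 to 0.19. The same median over all genes tested stayed between -0.09 and 0.06 on every array. The 2 arm∆N arrays differed from each other by more than the 2 Wg++ arrays did, and only 1 of 69 genes lay above its own mean on arm∆N replicate 2, against 20 on arm∆N replicate 1.

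**Figure D1:**
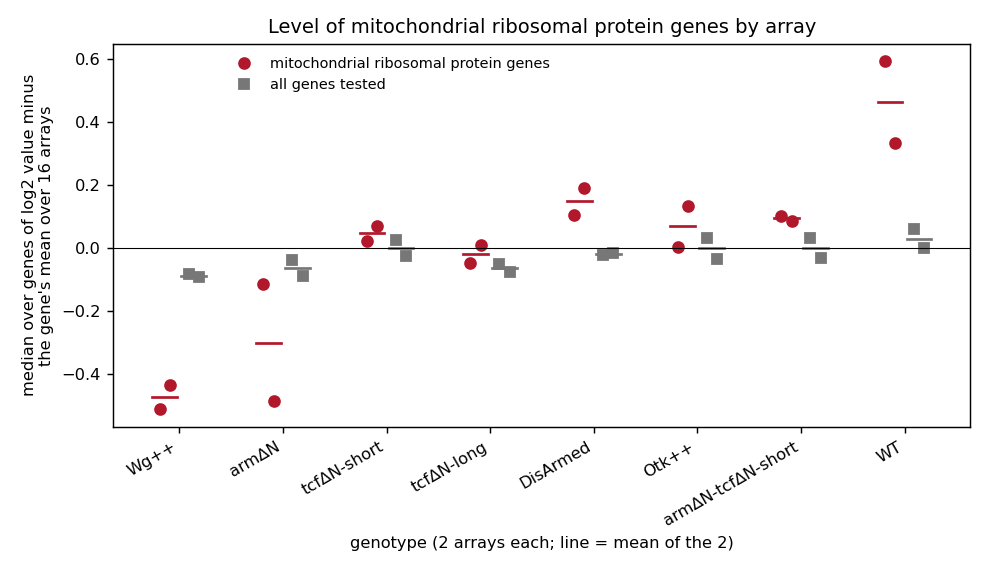
Median log2 deviation from the gene mean over 16 arrays (vertical axis) for each array, by genotype, over the 69 mitochondrial ribosomal protein genes (circles) and all 8860 genes tested (squares), with a line at the mean of the 2 arrays. The circles lie lowest in Wg++ (-0.51 and -0.44) and highest in WT (0.59 and 0.33), while the squares stay near 0.

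WT had the highest mean of the 8 genotypes for 56 of the 69 genes, and for 15.5% of all genes. Wg++ had the lowest mean for 47 of them, and for 30.2% of all genes, and arm∆N for 15, and for 18.2% of all genes. WT replicate 1 was the highest of the 16 arrays for 48 genes and WT replicate 2 for 9. Every comparison with WT below uses the same 2 WT arrays.

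In Wg++ embryos, 50 of the 69 genes were called lower than in WT and 1, mRpS5, was called higher. Of all genes tested, 22.1% were called lower and 18.8% higher. The median log2 fold change of the 69 genes was -0.99, against -0.11 over all genes. The 2 Wg++ values of 58 genes both lay below the 2 WT values, as did those of 40.7% of all genes. Without WT replicate 1, 39 of the 50 genes were still called lower.

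mRpL20, whose bacterial homologue binds 23S rRNA early in the assembly of the large subunit, differed most. It had 6.03 and 6.46 in Wg++ and 6.80 and 6.73 in arm∆N, against 8.08 and 8.03 in WT. The other genotypes lay from 6.99 to 7.70, so that no array of theirs overlapped with WT, Wg++ or arm∆N. The log2 fold change against WT was -1.81 in Wg++ (SE 0.25, adjusted p = 0.000973) and -1.29 in arm∆N (SE 0.25, adjusted p = 0.00943).

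mRpS14, a small-subunit protein with a bacterial homologue, had 6.17 and 6.44 in Wg++, against 8.09 and 7.70 in WT. Its log2 fold change was -1.59 (SE 0.22, adjusted p = 0.00106). The genotypes did not overlap. mRpL43, mRpL55 and mRpL40 are large-subunit proteins without a bacterial counterpart. mRpL43 had 5.23 and 5.18 in Wg++, against 6.92 and 6.49 in WT (log2 fold change -1.50, SE 0.20, adjusted p = 0.000967). mRpL55 had 7.21 and 7.22 in Wg++, against 8.98 and 8.40 in WT (log2 fold change -1.47, SE 0.24, adjusted p = 0.00166). In both genes the 2 Wg++ arrays lay close together and well under WT, and the WT arrays were further apart. mRpL40 had 5.52 and 5.72 in Wg++, against 7.19 and 6.91 in WT (log2 fold change -1.43, SE 0.20, adjusted p = 0.00101), again without overlap.

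In arm∆N embryos, 44 genes were called lower than in WT and mRpS5 was called higher. Of all genes, 11.6% were called lower and 7.92% higher. The median log2 fold change was -0.77 over the 69 genes and -0.08 over all genes. Both arm∆N values of 57 genes lay below both WT values, as for 32% of all genes. This count depended on single arrays more than that of Wg++ did. Fewer of the 44 genes were still called lower without arm∆N replicate 2 or without WT replicate 1, and fewer of all genes were. The median of the members was -0.55 without arm∆N replicate 2. In a fit to the 4 arrays of arm∆N and WT alone, only 2 of the 44 were still called lower, and 1.12% of all genes were.

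After mRpL20, the genes that fell most in arm∆N were mRpL21, mRpL47, mRpL15 and mRpL3. mRpL21 has a bacterial homologue in the large subunit. It had 5.81 and 5.05 in arm∆N, against 6.98 and 6.35 in WT (log2 fold change -1.24, SE 0.26, adjusted p = 0.0138). The arrays of each genotype were far apart but did not overlap with those of the other. mRpL3, whose bacterial homologue reaches towards the peptidyl transferase centre, had 5.63 and 5.30 in arm∆N, against 6.68 and 6.47 in WT (log2 fold change -1.12, SE 0.17, adjusted p = 0.0032). In Wg++ it had 5.29 and 5.24 (log2 fold change -1.32, SE 0.17, adjusted p = 0.000837). Its arrays in these 2 genotypes lay under those of every other genotype, the lowest of which was 5.99.

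mRpL15 was lower in arm∆N than in Wg++. It had 6.99 and 6.55 in arm∆N and 7.18 and 7.25 in Wg++, against 8.16 and 7.70 in WT. The log2 fold change against WT was -1.16 in arm∆N (SE 0.20, adjusted p = 0.00557) and -0.72 in Wg++ (SE 0.20, adjusted p = 0.0179). Set against each other, Wg++ and arm∆N differed by 0.45 (SE 0.20), which was not called (adjusted p = 0.113).

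mRpL47, the counterpart of a bacterial protein near the exit of the peptide tunnel, was measured by 2 probesets. The probeset used had 7.57 and 7.64 in arm∆N, against 8.88 and 8.67 in WT (log2 fold change -1.17, SE 0.24, adjusted p = 0.0119). The second had 6.63 and 6.18 in arm∆N, against 6.85 and 7.10 in WT (log2 fold change -0.57, SE 0.19, adjusted p = 0.0683), a fold change under the minimum. In Wg++ both probesets were called lower, by -1.35 and -0.92. mRpS11, the other gene with 2 probesets, was called with neither in any comparison.

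**Figure D2:**
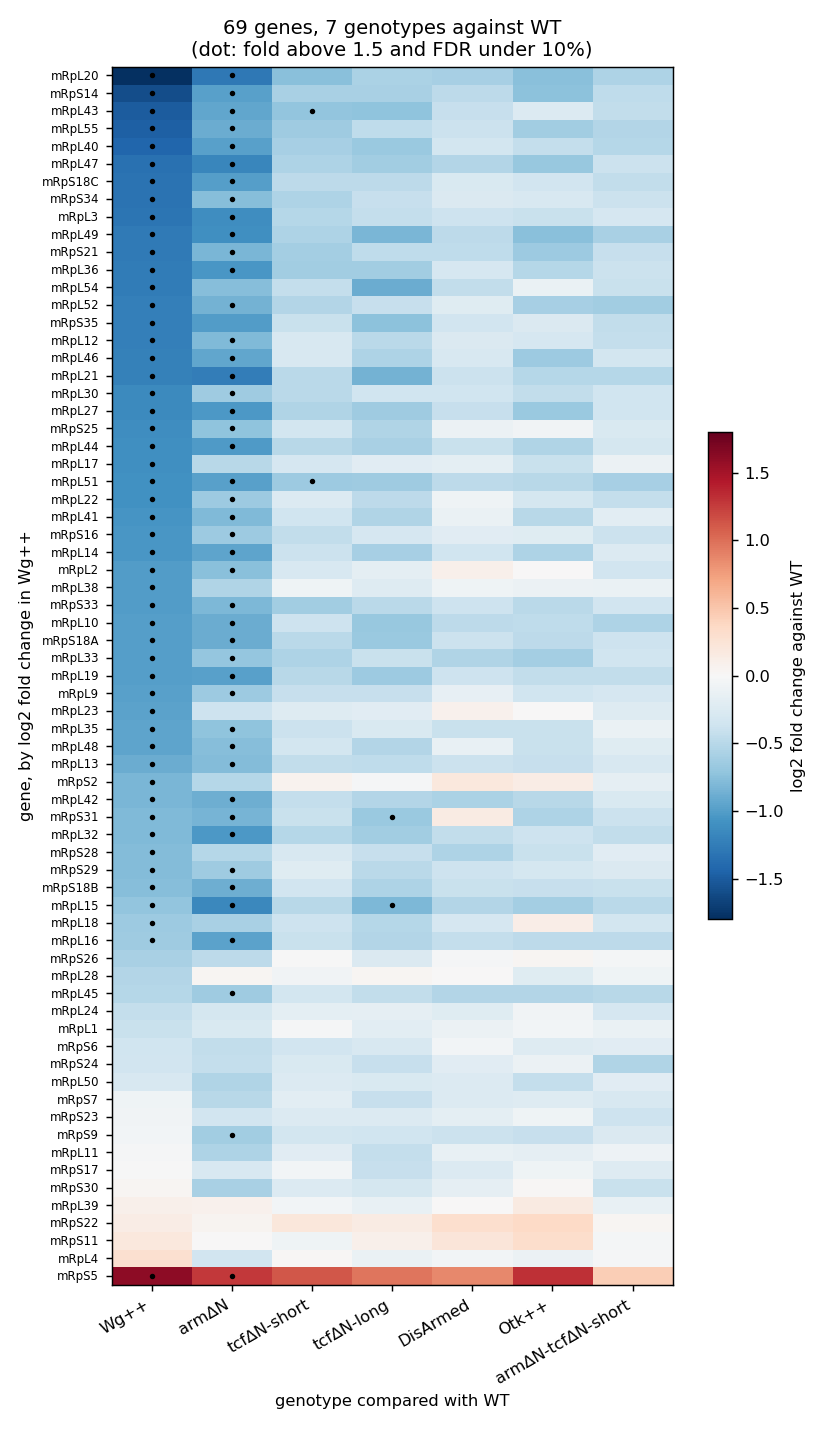
Log2 fold change against WT (colour) of the 69 genes (vertical axis, ordered by the value in Wg++) in the 7 transgene genotypes (horizontal axis), with a dot for a gene called at a fold above 1.5 and an FDR under 10%. Dots fill most of the Wg++ and arm∆N columns (51 and 45 genes), 2 genes each carry one in the tcf∆N-short and tcf∆N-long columns, and mRpS5 at the bottom has the opposite sign.

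mRpS5 was the exception. Its bacterial homologue lines the entrance of the mRNA channel in the small subunit and affects the accuracy of decoding. It had 10.05 and 9.78 in Wg++ and 9.91 and 9.25 in arm∆N, against 7.88 and 8.74 in WT. Its values in WT and in each of these genotypes did not overlap, but its 2 WT arrays were further apart than the 2 arrays of any other genotype. The log2 fold change was 1.61 in Wg++ (SE 0.39, adjusted p = 0.00903) and 1.27 in arm∆N (SE 0.39, adjusted p = 0.0534). Without WT replicate 1 it was 1.17 in Wg++ and 0.83 in arm∆N, and it was no longer called in arm∆N. The other genotypes ran from 8.40 in arm∆N-tcf∆N-short to 10.04 in Otk++, and reached both into the range of WT and into that of Wg++. Over the 16 arrays, mRpS5 correlated with the median of the other members at r = -0.72, the lowest of the 69 genes.

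**Figure D3:**
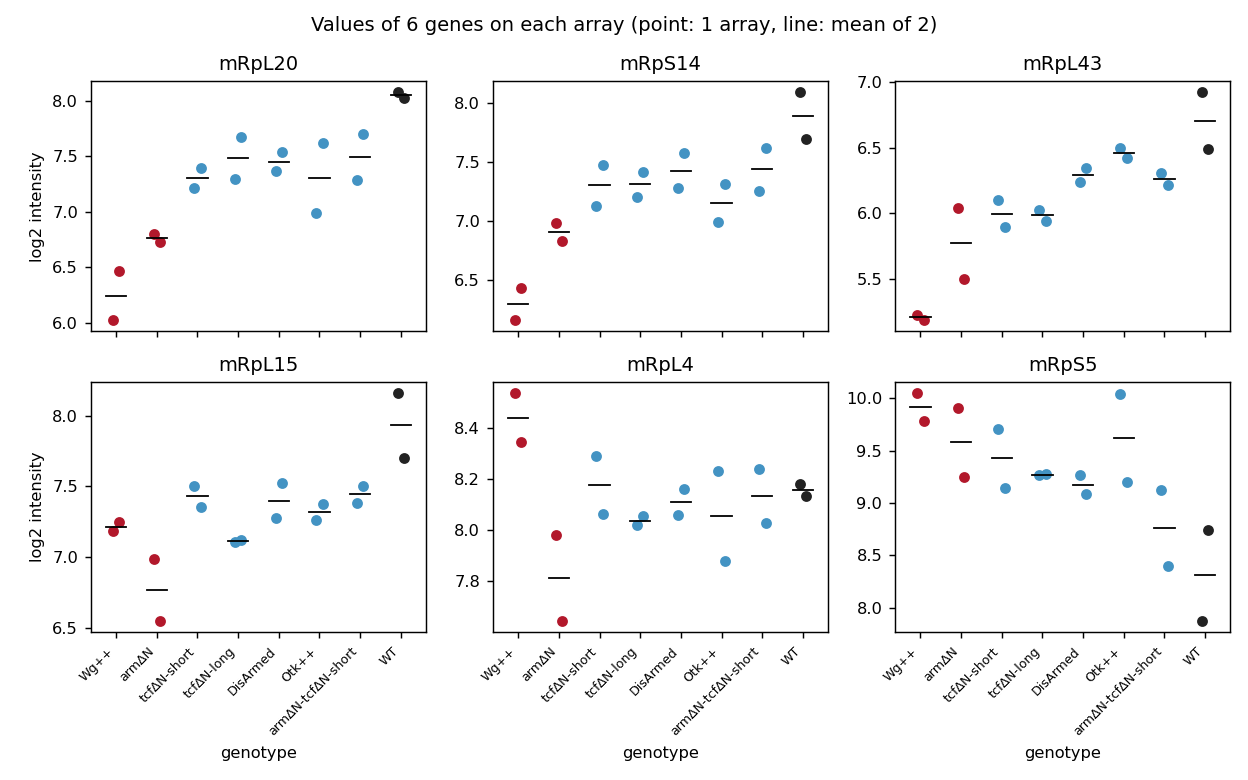
Log2 intensity (vertical axis of each panel) of 6 genes on each array, by genotype, with a line at the mean of the 2 arrays; Wg++ and arm∆N are red, WT black and the other genotypes blue. mRpL20, mRpS14 and mRpL43 are lowest in Wg++, mRpL15 and mRpL4 are lowest in arm∆N, and mRpS5 is lowest in WT.

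Both subunits were affected. Of the 44 large-subunit genes, 36 were called lower in Wg++ and 32 in arm∆N, with median log2 fold changes of -1.0 and -0.79. Of the 25 genes with a small-subunit symbol, mRpS30 included, 14 were called lower in Wg++ and 12 in arm∆N, with medians of -0.78 and -0.63. The difference between the subunits was not tested. The members were also divided by descent, a division made after the values were seen. Of the 40 with a bacterial counterpart, 28 were called lower in Wg++ and 24 in arm∆N. Of the 26 that are found in mitochondria only, 19 were called lower in Wg++ and 17 in arm∆N. mRpS18A, mRpS18B and mRpS18C, which are paralogues of 1 bacterial protein, were called lower in both genotypes. Their log2 fold changes ran from -1.33 to -0.77 in Wg++ and from -1.0 to -0.88 in arm∆N.

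The other called genes covered many sites of the ribosome. mRpL12, the stalk protein that recruits translation factors, had 7.45 and 7.82 in Wg++ and 8.34 and 7.80 in arm∆N, against 9.04 and 8.69 in WT. It was called lower in Wg++ (log2 fold change -1.23, SE 0.22, adjusted p = 0.00252) and in arm∆N (-0.79, SE 0.22, adjusted p = 0.0399). mRpL2, a large-subunit protein with a bacterial homologue, had 6.04 and 6.34 in Wg++ and 6.54 and 6.35 in arm∆N, against 7.08 and 7.31 in WT. Its log2 fold change was -1.0 in Wg++ (SE 0.20, adjusted p = 0.0042) and -0.75 in arm∆N (SE 0.20, adjusted p = 0.0359). In each of these genes the arrays of both genotypes lay under those of WT. mRpS29, whose mammalian homologue is the GTP-binding protein DAP3, was also called lower in Wg++ (-0.78, adjusted p = 0.00686) and in arm∆N (-0.64, adjusted p = 0.0382).

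A pair of small-subunit proteins of the mitochondrial ribosome carry other symbols and were not among the 69. tko, the fly counterpart of bacterial S12 at the decoding centre, had 7.92 and 7.99 in Wg++ and 8.56 and 8.29 in arm∆N, against 9.10 and 9.08 in WT. It was called lower in Wg++ (log2 fold change -1.14, SE 0.18, adjusted p = 0.00142) and in arm∆N (-0.67, SE 0.18, adjusted p = 0.0314). bonsai, the counterpart of S15, had 7.07 and 7.14 in Wg++ and 7.74 and 6.91 in arm∆N, against 8.27 and 7.72 in WT. It was called lower in Wg++ (-0.89, SE 0.29, adjusted p = 0.0325). In arm∆N, where 1 array overlapped with WT, its log2 fold change was -0.67 (adjusted p = 0.147).

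The 18 genes not called in Wg++ included mRpL39, mRpS22, mRpS11 and mRpL4, whose correlation with the median of the other members over the 16 arrays lay between -0.13 and -0.05. mRpL39 had 8.0 and 7.74 in Wg++ and 8.12 and 7.59 in arm∆N, against 7.69 and 7.87 in WT. mRpS22 had 8.61 and 8.52 in Wg++ and 8.62 and 8.36 in arm∆N, against 8.10 and 8.77 in WT. In both the 3 genotypes overlapped. Of the 69 genes, 58 correlated with the median of the rest at r above 0.5. The median correlation of 2 members was 0.70 over the 16 arrays, against -0.01 for all pairs of genes tested. Over the 8 differences between the 2 arrays of a genotype it was 0.54 for members and 0.00 for all pairs. Genes on 1 array share its embryos and its hybridisation, so these correlations are a description only.

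In the fit to all 16 arrays, few of these genes were called when Wg++ was set against arm∆N. Of the 69, 2 were called higher in Wg++ and 3 lower, against 18.7% and 18.4% of all genes. The median log2 difference was -0.14, against -0.04 over all genes. Without arm∆N replicate 1 the median was 0.02, and without arm∆N replicate 2 it was -0.35. The direction and the number of calls thus depended on which arm∆N array was used. Without either Wg++ array, 1 gene was called each way.

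The genes higher in Wg++ than in arm∆N were mRpL4 and mRpS30. mRpL4, whose bacterial homologue lines the peptide tunnel, had 8.54 and 8.34 in Wg++ and 7.98 and 7.65 in arm∆N, a log2 difference of 0.63 (SE 0.18, adjusted p = 0.0269). In WT it had 8.18 and 8.13, and neither genotype was called against WT. mRpS30, which mammalian structures place in the large subunit despite its name, had 7.77 and 8.11 in Wg++ and 7.44 and 7.21 in arm∆N, a log2 difference of 0.62 (SE 0.18, adjusted p = 0.0241). Its WT values, 7.88 and 7.93, lay within the Wg++ range. mRpS14 was lower in Wg++ than in arm∆N by -0.61 (SE 0.22, adjusted p = 0.0607), with 6.17 and 6.44 in Wg++ and 6.99 and 6.84 in arm∆N. mRpL17 had 6.82 and 6.87 in Wg++ and 7.76 and 7.15 in arm∆N (log2 difference -0.61, SE 0.19, adjusted p = 0.0377), and the difference was -0.30 without arm∆N replicate 1 and -0.91 without arm∆N replicate 2. mRpL55 had 7.84 and 7.77 in arm∆N, above its Wg++ values given earlier (log2 difference -0.59, SE 0.24, adjusted p = 0.0845). All 5 genes were without overlap between the 2 genotypes, and each lost its call when at least 1 of the Wg++ or arm∆N arrays was left out.

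Few members were called in the other genotypes, although most values lay under WT. In tcf∆N-short, 2 genes were called lower and none higher, against 5.2% and 2.51% of all genes. The median log2 fold change was -0.38, against 0.00 over all genes, and both arrays lay under both WT arrays for 46 members and 24.5% of all genes. mRpL43 had 6.10 and 5.89 in tcf∆N-short, against 6.92 and 6.49 in WT (log2 fold change -0.71, SE 0.20, adjusted p = 0.078). mRpL51, which has no bacterial counterpart, had 7.50 and 7.72 in tcf∆N-short, against 8.41 and 8.12 in WT (-0.65, SE 0.18, adjusted p = 0.0686). Neither overlapped with WT. Both calls were lost without WT replicate 1 or tcf∆N-short replicate 1, and not both held without either array of tcf∆N-long, Wg++ or DisArmed. The median of the members was -0.27 without WT replicate 1 and -0.51 without WT replicate 2.

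In tcf∆N-long, 2 genes were called lower and none higher, against 2.25% and 1.48% of all genes. The median was -0.46, against -0.08 over all genes, and both arrays lay under both WT arrays for 60 members and 30.8% of all genes. mRpL15 had 7.11 and 7.12 in tcf∆N-long, against 8.16 and 7.70 in WT (log2 fold change -0.82, SE 0.20, adjusted p = 0.0699). mRpS31, a small-subunit protein found in mitochondria only, had 6.81 and 6.73 in tcf∆N-long, against 7.44 and 7.43 in WT (-0.67, SE 0.17, adjusted p = 0.0825). Both lay under WT on each array. Both calls were lost without WT replicate 1 or either array of tcf∆N-long, Wg++ or DisArmed. The median of the members was -0.34 without WT replicate 1 and -0.59 without WT replicate 2. When tcf∆N-short was set against tcf∆N-long, no member was called by limma, against 1.08% of all genes higher and 2.11% lower. None had an unadjusted p under 0.05, against 14% of all genes, and the median difference was 0.09.

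In DisArmed no member was called (all genes 0.237% higher and 0.361% lower), the median was -0.31, and 10 members had an unadjusted limma p under 0.05, against 7.54% of all genes. In Otk++ no member was called (all genes 0.124% higher and 0.203% lower), the median was -0.40, and 27 had an unadjusted p under 0.05, against 16.8% of all genes. In arm∆N-tcf∆N-short no member was called (all genes 1.7% higher and 1.47% lower), the median was -0.35, and 12 had an unadjusted p under 0.05, against 10.6% of all genes. The medians over all genes in these 3 genotypes were -0.05, -0.06 and -0.03. Both arrays were under both WT arrays for 49 members in DisArmed, 43 in Otk++ and 49 in arm∆N-tcf∆N-short, against 24.1%, 24.4% and 18.2% of all genes. Without WT replicate 1 the medians of the members were -0.18 in DisArmed, -0.20 in Otk++ and -0.23 in arm∆N-tcf∆N-short. Without WT replicate 2 these medians were -0.43 in DisArmed and -0.45 in arm∆N-tcf∆N-short. The lowest median in Otk++ was -0.49, without Otk++ replicate 2.

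The level of WT entered each of these comparisons, so comparisons without WT were added after the data were seen. Against the mean of the 5 transgene genotypes other than Wg++ and arm∆N, 34 members were called lower in Wg++ and 1 higher, with a median log2 difference of -0.53. Of all genes, 20.1% were lower and 19.9% higher. The same comparison of arm∆N gave 6 lower and none higher, with a median of -0.39, against 5.77% and 7.19% of all genes. The 6 were mRpL2, mRpL3, mRpL20, mRpL21, mRpL47 and mRpS18C. Against DisArmed alone, 38 members were called lower in Wg++ (all genes 18.6%) and 12 in arm∆N (all genes 4.16%), with medians of -0.63 and -0.47. None was called higher in either, against 19% and 4.82% of all genes. When the 7 transgene genotypes together were set against WT, 23 members were lower and 1 was higher, against 4.62% and 1.82% of all genes, and the median was -0.51.

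In the F test over all 7 contrasts with WT, 11 of the 69 genes were altered in any condition at an FDR under 1%, a share close to the 12.3% of all genes, and 47 had an unadjusted p under 0.05, against 49.1% of all genes. When any single array was left out, from 0 (either Wg++ array) to 9 (Otk++ replicate 2) were altered. The 6 with the lowest p were mRpL3, mRpL22, mRpL43, mRpL20, mRpL40 and mRpS25. mRpL22, whose bacterial homologue lines the peptide tunnel, had 7.05 and 7.02 in Wg++ and 7.63 and 7.31 in arm∆N, against 8.17 and 8.09 in WT (F test adjusted p = 0.00559). mRpS25, a small-subunit protein found in mitochondria only, had 6.13 and 5.99 in Wg++ and 6.63 and 6.27 in arm∆N, against 7.13 and 7.23 in WT (F test adjusted p = 0.00753). Both had their lowest arrays in Wg++.

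The embryos with both transgenes allow the effect of arm∆N to be compared in the presence and absence of tcf∆N-short, a question of whether Armadillo acts through TCF. arm∆N-tcf∆N-short embryos were higher than arm∆N embryos in 7 members and lower in none, against 6.26% and 5.36% of all genes, with a median log2 difference of 0.40. The 7 were mRpL3, mRpL14, mRpL15, mRpL27, mRpL35, mRpL44 and mRpL47, all of the large subunit. The second probeset of mRpL47 was not called here (log2 difference 0.45, adjusted p = 0.186). Both arm∆N-tcf∆N-short values lay above both arm∆N values in 48 members, against 27.8% of all genes. The count of called genes was 1 without arm∆N replicate 2, 1 without arm∆N-tcf∆N-short replicate 2 and 11 without arm∆N replicate 1. Against tcf∆N-short, arm∆N-tcf∆N-short had no member called by limma, against 0.102% of all genes higher and 0.0677% lower, and none with an unadjusted p under 0.05, against 5.88% of all genes. The median was 0.04.

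The interaction, the log2 effect of arm∆N with tcf∆N-short minus its effect without it, was called above 0 for 27 members and below 0 for 1. Of all genes, 7.08% were above and 4.12% below. Its median was 0.78 over the members and 0.07 over all genes. By subunit, 20 of 44 large-subunit genes and 7 of 25 small-subunit genes were above 0. The contrast adds the WT level, so an offset of WT shared by all transgene genotypes would raise it. Such an offset cannot be told apart from an interaction here. The interaction uses the WT arrays, and fewer members were called above 0 without WT replicate 1. Fewer were also called without tcf∆N-short replicate 1, arm∆N replicate 2 or arm∆N-tcf∆N-short replicate 2. Calls above 0 over all genes fell as well without each of these arrays. With 1 array left out, the median over the members ran from 0.59 to 0.98.

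mRpL20 had 7.29 and 7.70 in arm∆N-tcf∆N-short, 6.80 and 6.73 in arm∆N and 7.22 and 7.39 in tcf∆N-short, against 8.08 and 8.03 in WT. Its interaction was 1.48 (SE 0.35, adjusted p = 0.0399). mRpL3 had 6.18 and 6.36 in arm∆N-tcf∆N-short, 5.63 and 5.30 in arm∆N and 6.13 and 5.99 in tcf∆N-short, against 6.68 and 6.47 in WT. Its interaction was 1.33 (SE 0.25, adjusted p = 0.0166). In both genes arm∆N alone was lowest and did not overlap with the other 3 genotypes. mRpL36, the smallest protein of the large subunit in bacteria, had 8.03 and 8.23 in arm∆N-tcf∆N-short, 7.69 and 7.23 in arm∆N and 7.63 and 8.14 in tcf∆N-short, against 8.62 and 8.39 in WT (interaction 1.29, SE 0.32, adjusted p = 0.0454). Here arm∆N overlapped with tcf∆N-short. The interaction was 1.22 for mRpL21 (SE 0.37, adjusted p = 0.0845). For mRpL47 it was 1.34 with the probeset used (SE 0.34, adjusted p = 0.0475) and 0.60 with the second (SE 0.26, adjusted p = 0.194), which was not called. mRpS5 went the other way, with 9.12 and 8.40 in arm∆N-tcf∆N-short, 9.91 and 9.25 in arm∆N and 9.71 and 9.15 in tcf∆N-short, against 7.88 and 8.74 in WT. Its interaction was -1.94 (SE 0.54, adjusted p = 0.0671), and arm∆N-tcf∆N-short overlapped with WT. The call was lost without WT replicate 1, tcf∆N-short replicate 1, arm∆N replicate 1 or arm∆N-tcf∆N-short replicate 2, and without the expression filter. Of the 6 genes named here, mRpL3 alone kept its call whichever array was left out.

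**Figure D4:**
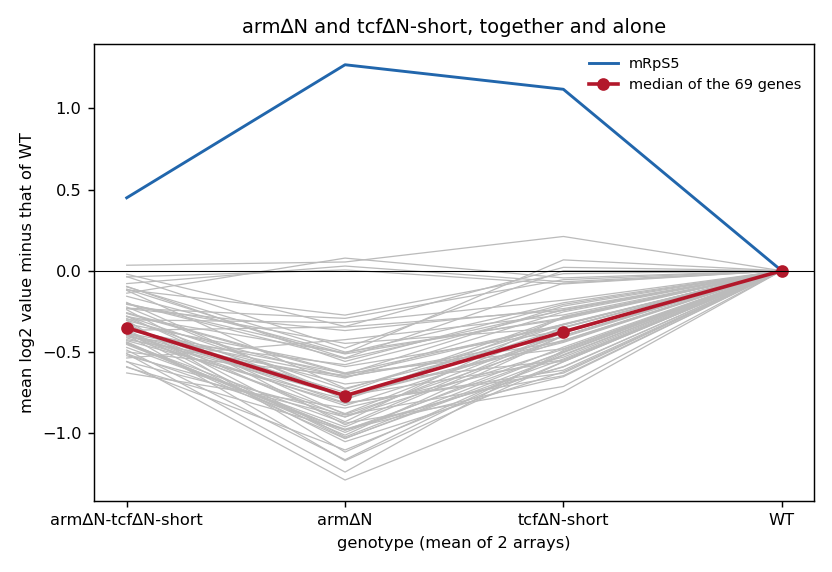
Mean log2 value minus that of WT (vertical axis) in arm∆N-tcf∆N-short, arm∆N, tcf∆N-short and WT (2 arrays each) for each of the 69 genes (thin lines), with mRpS5 in blue and the median in red. The median is -0.35 in arm∆N-tcf∆N-short, -0.77 in arm∆N and -0.38 in tcf∆N-short, and WT is 0 by construction.

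Other genes of mitochondria did not all follow the ribosomal proteins. Of all genes, 22.1% were called lower and 18.8% higher in Wg++, and 11.6% and 7.92% in arm∆N. In Wg++ against arm∆N, 18.4% of all genes were lower and 18.7% higher. Of 59 genes of the respiratory chain and ATP synthase, 34 were called lower in Wg++ (median -0.66) and 2 in arm∆N (median -0.23), and 18 were called lower in Wg++ than in arm∆N and none higher. Of 15 mitochondrial tRNA synthetases, which charge tRNAs for the mitochondrial ribosome, 5 were called lower and 3 higher in Wg++, and 8 lower and none higher in arm∆N. Of 19 genes that maintain mitochondrial DNA and its transcripts, 6 were called lower and 3 higher in Wg++, and 8 lower and none higher in arm∆N. In this list 9 genes were higher in Wg++ than in arm∆N and none lower. Of 11 mitochondrial translation factors, 2 were called lower and 2 higher in Wg++, and 3 lower and none higher in arm∆N. Their shares in Wg++, 18.2% each way, were near those of all genes. Of 39 ribosomal proteins of the cytosol, none was called lower in either genotype and 1 was called higher in each. The interaction was called above 0 for 1 of 59 respiratory chain genes and for none of 39 cytosolic ribosomal proteins, against 7.08% of all genes.

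**Figure D5:**
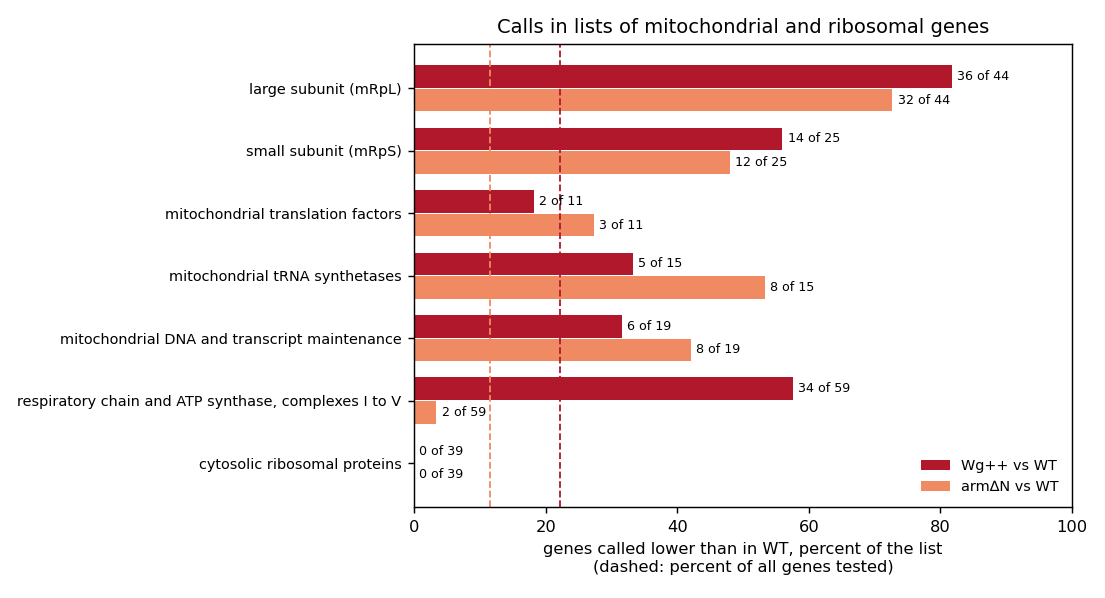
Percent of the genes of each list called lower than in WT (horizontal axis), with their number, in Wg++ and in arm∆N; dashed lines show the percent of all genes tested (22.1 and 11.6). Both ribosomal subunits exceed the dashed lines in both genotypes, the respiratory chain does so only in Wg++, and the cytosolic ribosomal proteins have 0 of 39 in each.

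Several measures moved with the Wg++ result. Of 19 maternal egg transcripts, 11 were called higher and 1 lower in Wg++ (median 1.70), and 1 was called lower in arm∆N (median 0.35). Their median deviation was 1.36 and 1.10 on the Wg++ arrays and 0.05 and -0.06 on the arm∆N arrays, against 0.01 and -0.59 in WT. Of 81 late cuticle genes, 33 were called lower and 1 higher in Wg++ (median -0.80), and 8 lower and 11 higher in arm∆N (median -0.01). Their median deviation was -0.98 and -0.35 on the Wg++ arrays and 0.35 and 0.28 on the arm∆N arrays, against 0.16 and 0.32 in WT. In tcf∆N-short, where 2 members were called, the maternal list had a median of 0.90 with none called, and 21 of the 81 cuticle genes were lower and 1 higher (median -0.96). The 2 tcf∆N-short arrays differed in both lists. The median deviation was 0.86 on replicate 1 and -0.02 on replicate 2 for the maternal list, and -0.84 and -0.15 for the cuticle list. Of all genes, 22.1% were called lower in Wg++, 11.6% in arm∆N and 5.2% in tcf∆N-short, and 18.8%, 7.92% and 2.51% higher. The part of the maternal and cuticle lists in the Wg++ result was not tested.

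The members are short genes, with a median span of 909 bp by RefSeq's annotation of the assembly Release 6 plus ISO1 MT, against 2762.5 bp over all genes tested. The 774 other genes of that span or less had a median log2 fold change of -0.31 in Wg++ and -0.23 in arm∆N, and 29.7% and 14.7% of them were called lower. The members at or below that span had medians of -1.05 and -0.79, and the longer members -0.79 and -0.65. The part of gene length in the result was not tested. The members lie on all the large chromosome arms, 11 on X, 12 on 2L, 10 on 2R, 17 on 3L and 19 on 3R, and in Wg++ 10, 7, 9, 12 and 12 of these were called lower. In Wg++ no marker of muscle (2 tested) or mesoderm (1 tested) was called, 1 of 3 neuronal and 1 of 3 gut markers were lower, and 1 of 3 epidermal markers was higher. A marker each of trachea (1 tested), haemocytes (3 tested) and amnioserosa (3 tested) was lower. The gene srp is counted among both the haemocyte and the gut markers, so these lists are not independent. The summed log2 level of the haemocyte markers ran from 16.01 to 16.68 in Wg++ and from 17.4 to 18.06 in arm∆N, against 18.35 to 18.63 in WT. That of the amnioserosa markers ran from 17.17 to 18.47 in Wg++ and from 16.45 to 18.5 in arm∆N, against 19.42 to 20.56 in WT. The tracheal marker ran from 2.33 to 3.13 in Wg++ and from 2.56 to 3.26 in arm∆N, against 3.76 to 3.77 in WT. These 3 were below WT in both genotypes. The neuronal sum was 15.33 to 16.27 in Wg++ and 17.71 to 18.19 in arm∆N, against 17.19 to 17.94 in WT, and that of the gut markers 19.03 to 19.59 in Wg++ and 20.78 to 21.72 in arm∆N, against 20.3 to 22.84 in WT. The muscle sum was 15.06 to 16.13 in Wg++ and 18 to 20.31 in arm∆N, against 16.35 to 17.59 in WT. The sums of neurons, gut and muscle were below WT in Wg++ only, and that of muscle was above WT in arm∆N. The epidermal sum was 20.49 to 21.33 in Wg++ and 21.87 to 21.89 in arm∆N, against 17.56 to 20.77 in WT. It was thus above WT in arm∆N and overlapped with WT in Wg++. The mesoderm marker overlapped with WT in both genotypes. In arm∆N, 1 marker of haemocytes and 1 of amnioserosa were called lower, and of the neuronal markers 1 was lower and 1 higher. The part of these cell types in the result was not tested. Germ cell markers were not among the genes tested.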

How the data were processed

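The authors extracted RNA from naïve embryos, hybridised it to Affymetrix Drosophila 2 arrays and made the deposited log2 values with GC-RMA, which corrects background by the GC content of the probes and normalizes between arrays. The version is not given in the sources used here. Values ran from 2.289 to 13.77. Of 18952 probesets, 13647 had 1 gene in the platform annotation, 402 several and 4903 none, and 13544 of those with 1 gene matched RefSeq's annotation of the assembly Release 6 plus ISO1 MT. Per the methods of the study, each gene on a named chromosome was represented by its probeset of largest interquartile range, and tests were run on genes that exceeded 2.5 on 2 or more arrays. A linear model over all 16 arrays was fitted in limma 3.58.1 (R 4.3.3) with 1 coefficient per genotype, leaving 8 residual degrees of freedom and 2.72 from the prior. Calls needed a fold change above 1.5 and a Benjamini-Hochberg FDR under 10%, and the F test over 7 contrasts an FDR under 1%. The number of arrays, 2 a genotype, limits the precision. The scripts were tested on simulated data.

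The members and gene lists were chosen with earlier results of these data known. Genes were named by a rule: the 5 members called that rose or fell most without overlap in each comparison with WT and in Wg++ vs arm∆N, the 6 with the lowest F test p, up to 5 members each way called in the interaction, tko and bonsai, and members whose probesets disagreed. The other genes named were chosen after their values were seen. Alternatives were other filters, probesets, priors, thresholds, cyclic loess, a replicate block, a fit to the genotypes compared and leaving out each array, with other reference genotypes added after the data were seen. Gene sequences were not used here.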

Additional observations from a re-analysis of the deposited data

Results flagged for a closer look

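In the limma test of single genes, the effect of arm∆N was called different with and without tcf∆N-short for some members. The contrast adds the WT level, and members also lay under WT in DisArmed (median -0.31). An offset of WT shared by all transgene genotypes would raise the interaction and cannot be told apart from it here. The interaction was called above 0 for 27 members and below 0 for 1, against 7.08% and 4.12% of all genes. Fewer members were called above 0 without WT replicate 1 or without tcf∆N-short replicate 1, and fewer of all genes were. With 1 array left out, the median over the members ran from 0.59 to 0.98. The interaction was 1.48 for mRpL20, 1.34 for mRpL47, 1.33 for mRpL3, 1.29 for mRpL36 and 1.22 for mRpL21, and -1.94 for mRpS5, on the log2 scale. The second probeset of mRpL47 gave 0.60 and was not called. With 2 arrays a genotype, no array could be tested as an outlier within its group.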

How the results depend on the processing

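Of the 50 members lower in Wg++, 47 were still called lower with cyclic loess and the median was -0.85, and over all genes that scaling brought the median log2 fold change of Wg++ against WT to 0.00, against -0.11 without it, with 1975 genes called higher and 1529 lower against 1665 and 1954 without it. Set against 5 other transgene genotypes, Wg++ had 34 members lower and a median of -0.53, and against DisArmed 38 lower, 0 higher and a median of -0.63. The 44 members lower in arm∆N became 2 when only the 2 genotypes compared were fitted, where 1.12% of all genes were called lower. They became 6 against 5 other transgene genotypes (median -0.39) and 12 against DisArmed (median -0.47). The count of 1 higher in arm∆N became 0 under each of these and at an FDR under 5%.

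Members lower in tcf∆N-short (2) were 1 with a filter of 4 and with a trended robust prior, 0 at an FDR under 5% and 0 when only the 2 genotypes were fitted. Members lower in tcf∆N-long (2) were 5 without the expression filter, 1 with a filter of 4, 1 with the trended prior and 0 with cyclic loess, at an FDR under 5% or with only the 2 genotypes. In Wg++ vs arm∆N, cyclic loess gave 4 higher and 0 lower, an FDR under 5% gave 1 lower, and no minimum fold gave 4 higher and 8 lower. Members higher in arm∆N-tcf∆N-short than in arm∆N (7) were 3 with cyclic loess, 4 at an FDR under 5% and 0 with only the 2 genotypes. In the interaction, an FDR under 5% gave 12 higher and 0 lower, and no expression filter gave 0 lower. Members altered in any condition (11) were 5 with a filter of 4, 7 with the trended prior, 3 with cyclic loess and 39 at an FDR under 5%. The share of all genes altered at each of these settings is not given here, so these counts cannot be set against it. The interaction has no fit to 2 genotypes, and the F test has no minimum fold. The cause of these changes was not tested.

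Replicate numbers were not taken to pair the samples, since nothing in the labels ties them and not every pair of genotypes correlated above 0.1. Over 28 pairs, deviations of same-numbered arrays correlated from -0.53 to 0.68, and 20 were above 0.1. With a replicate block, members called were 1 higher and 6 lower in tcf∆N-short, 12 lower in tcf∆N-long, 1 higher and 4 lower in Otk++, 13 higher in arm∆N-tcf∆N-short vs arm∆N, and 19 altered in any condition. Over all genes the block called 747 lower in tcf∆N-short (461 without it), 489 in tcf∆N-long (199 without it) and 207 in Otk++ (18 without it). These were 8.43%, 5.52% and 2.34% of the genes, and the 6 of 69 members in tcf∆N-short were near that share. The block called 415 genes higher in tcf∆N-short, 195 in Otk++ and 804 in arm∆N-tcf∆N-short vs arm∆N (555 without it).

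Leaving out 1 array at a time gave ranges. Members lower were 39 to 51 in Wg++ (median -1.05 to -0.87), 23 to 51 in arm∆N (median -0.89 to -0.55, with 0 to 1 higher), 0 to 9 in tcf∆N-short (median -0.51 to -0.27, 0 to 1 higher), 0 to 12 in tcf∆N-long (median -0.59 to -0.34), 0 to 3 in DisArmed (median -0.43 to -0.18), 0 to 8 in Otk++ (median -0.49 to -0.20, 0 to 1 higher) and 0 to 1 in arm∆N-tcf∆N-short (median -0.45 to -0.23). For Wg++ vs arm∆N they were 0 to 5 higher and 0 to 13 lower, with a median of -0.35 to 0.0177 that reversed without arm∆N replicate 1. For tcf∆N-short vs tcf∆N-long the median was 0.03 to 0.11, for arm∆N-tcf∆N-short vs tcf∆N-short 0.00 to 0.07, and for arm∆N-tcf∆N-short vs arm∆N 0.22 to 0.61 with 1 to 11 higher. The interaction had 7 to 33 higher and 0 to 1 lower (median 0.59 to 0.98), and 0 to 9 members were altered in any condition. A genotype left with 1 array is assumed to vary like the others. The number of all genes called also changed with the array left out, and these counts are not set against it.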
